A study of Mus musculus with 14 samples.

Results

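The 9 genes described here encode digestive enzymes and receptors of the brush border, the microvillus surface through which absorptive enterocytes face the gut lumen. They were taken by symbol (Lct, Sis, Treh, Anpep, Dpp4, Mgam, Enpep, Ace and Cubn) from 2 tables of 55335 mouse genes each. Each symbol had 1 row a table, and all 9 passed the filter on low counts, among 17364 genes tested in the Chrm3 experiment and 16807 in the ageing experiment.

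The libraries were made from intestinal stem cells sorted for EGFP. In the Chrm3 experiment every mouse was Lgr5CreERT2-IRES-GFP; Chrm3flox/flox, so that the Cre recombinase was driven from Lgr5, a gene of crypt base stem cells, and acted once tamoxifen was given. KO mice received tamoxifen and WT mice vehicle, for 3 days ahead of the ES modelling, so the intended deletion of Chrm3, which encodes a muscarinic acetylcholine receptor, and the injection changed together and cannot be told apart. The groups were KO ES, KO NT, WT ES and WT NT, with 2 libraries each. The ES groups had gone through the ES modelling and the NT groups had not, and the labels do not spell out either name. In the ageing experiment the mice were Lgr5CreERT2-IRES-GFP without the floxed allele, labelled WT and NT, at 18 months (old, 3 libraries) and 2 months (young, 3 libraries). Nothing says that the libraries of a group came from separate animals, so p-values measure the spread between libraries, which may be technical. The sources give no mouse age for the Chrm3 experiment.

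Enterocytes arise from the crypt stem cells and switch on these genes as they mature and move up the villus. Their products finish digestion at the cell surface: glycosidases split disaccharides and starch fragments into monosaccharides, peptidases trim peptides to amino acids and short peptides, and membrane transporters next to them carry the products inward. Cubilin differs, since it is a receptor that takes up vitamin B12 bound to intrinsic factor. In bulk RNA, fewer cells of a type and less RNA per cell cannot be told apart.

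The libraries held total counts of 26683563 to 36882310. Stem cell markers summed to between 11500 and 16990 CPM (counts scaled to library size with TMM factors), and Lgr5 itself lay between 80.3 and 133 CPM over the 14 libraries. The 18 absorptive enterocyte markers summed to 2252 to 3501 CPM. Of the endothelial list, Cdh5, Cldn5, Emcn and Kdr had 0 counts in every library, which allows up to 0.0813 to 0.112 CPM (3 counts a library, counting error only). Chrm3 had 256 and 213 counts in KO ES libraries, against 357 and 291 in WT ES libraries, and 343 and 254 in KO NT libraries, against 355 and 386 in WT NT libraries. Its log2 fold change was -0.68 ± 0.17 for KO against WT in ES (± SE, edgeR adjusted p = 0.0363) and -0.50 ± 0.16 in NT (adjusted p = 0.119). Chrm3 transcript thus remained in every KO library, and its fall did not pass in NT. Whether the counted exons lie within the deleted stretch is not stated.

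The 2 KO NT libraries stood apart from each other. Over all genes their chi-square per degree of freedom was 25.9, the highest of any pair of replicates in either table (3.59 to 22.3 for the others), and mitochondrial genes took 8.74% of counts in replicate 2 and 6.99% in replicate 1. Of the 9 genes, KO NT replicate 2 had the higher level in 9, with a median ratio of 1.73 to replicate 1 and a range of 1.03 to 1.99. The same median ratio of replicate 2 to replicate 1 was 1.19 in KO ES, 1.23 in WT ES and 1.05 in WT NT. Comparisons that use KO NT are given with both libraries and, where a call changed, without each. The part of the mitochondrial share in these differences was not tested.

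Among the promoters of these genes, 4 are shown because they carry the comparison that follows: Lct and Sis hold the same CDX motif and a shared stretch around it, Mgam is the most abundant of the glycosidases, and Cubn, the gene with the widest range of levels over the Chrm3 libraries, held none of the motifs searched. The windows run from 250 bases before to 50 bases after the RefSeq transcription start (GRCm38.p6), 5′ to 3′ on the strand of the gene, with capitals marking motif letters. Lct is at chr1:128328269-128328568 on the minus strand, Sis at chr3:72967814-72968113 on the minus strand, Mgam at chr6:40628581-40628880 on the plus strand and Cubn at chr2:13491827-13492126 on the minus strand.
Lct: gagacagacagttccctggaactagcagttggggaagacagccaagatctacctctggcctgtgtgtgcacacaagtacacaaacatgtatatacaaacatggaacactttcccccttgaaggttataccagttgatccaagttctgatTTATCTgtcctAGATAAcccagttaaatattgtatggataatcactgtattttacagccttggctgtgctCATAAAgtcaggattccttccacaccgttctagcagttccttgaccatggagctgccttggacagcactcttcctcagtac
Sis: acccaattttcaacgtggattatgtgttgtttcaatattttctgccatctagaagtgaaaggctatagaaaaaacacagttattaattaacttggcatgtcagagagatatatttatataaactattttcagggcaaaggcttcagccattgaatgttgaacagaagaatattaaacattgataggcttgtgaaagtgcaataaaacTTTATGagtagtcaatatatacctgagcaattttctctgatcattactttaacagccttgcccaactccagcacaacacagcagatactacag
Mgam: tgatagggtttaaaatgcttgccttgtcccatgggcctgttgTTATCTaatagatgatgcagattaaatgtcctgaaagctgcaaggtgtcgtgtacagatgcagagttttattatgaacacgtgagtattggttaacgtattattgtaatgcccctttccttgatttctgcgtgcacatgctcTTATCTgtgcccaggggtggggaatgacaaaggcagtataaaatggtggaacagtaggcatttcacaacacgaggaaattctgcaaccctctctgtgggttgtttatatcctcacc
Cubn: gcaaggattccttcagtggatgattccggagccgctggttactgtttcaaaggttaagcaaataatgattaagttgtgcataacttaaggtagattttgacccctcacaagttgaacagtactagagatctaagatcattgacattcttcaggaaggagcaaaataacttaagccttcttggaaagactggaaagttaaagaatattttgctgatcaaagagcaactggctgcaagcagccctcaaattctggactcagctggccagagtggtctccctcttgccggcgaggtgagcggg

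Motifs of factor families known to bind promoters of intestinal genes were searched on both strands in 10 windows for the 9 genes, Ace having 2, and in 32817 mouse promoter windows. The motifs were chosen with the sequences of these genes in view, and no matches overlapped each other. The CDX motif TTTATG was present in Lct and Sis and in 11.9% of all windows. On the strand of the gene, the match began 31 bases before the start in Lct, where it reads CATAAA, and 43 bases before it in Sis. Both matches sit inside a 10-base run that the promoters share on opposite strands, CTCATAAAGT in Lct and ACTTTATGAG in Sis. It was found by searching these 2 windows, on either strand, for the longest run they share. The run occurred in 14 of the 32817 windows, Lct and Sis among them. Since it was picked from these sequences, that count is no test of its rarity. The GATA motif AGATAA was present in Lct, Mgam and Dpp4 and in 11.2% of all windows, with a pair of matches each in Lct and Mgam. The HNF4 motif CAAAGT was found in Treh and both Ace windows and in 14.4% of all. Anpep and Enpep, like Cubn, held none of these motifs. A match is a description of letters and not of binding.

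Per length of exon, in CPM per kb, the order of the genes' levels was the same in both experiments, which were normalised separately: Mgam, Anpep, Sis, Enpep, Dpp4, Ace, Lct, Treh and Cubn. Mgam averaged 157 CPM per kb over the 8 Chrm3 libraries and 182 CPM per kb over the 6 ageing libraries. Lct averaged 4.59 and 6.57 CPM per kb in the Chrm3 and ageing experiments, and Cubn 0.106 and 0.183 CPM per kb. Not all neighbours in this order were separated: the library ranges overlapped between Sis and Enpep, Enpep and Dpp4, Ace and Lct, and Lct and Treh in the Chrm3 experiment, and between Mgam and Anpep and between Lct and Treh in the ageing experiment. The genes also differed in how far they moved. Across the 8 Chrm3 libraries the highest over the lowest level in CPM was 1.25 for Mgam and 1.26 for Dpp4, against 6.48 for Lct and 18.7 for Cubn.

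**Figure D1:**
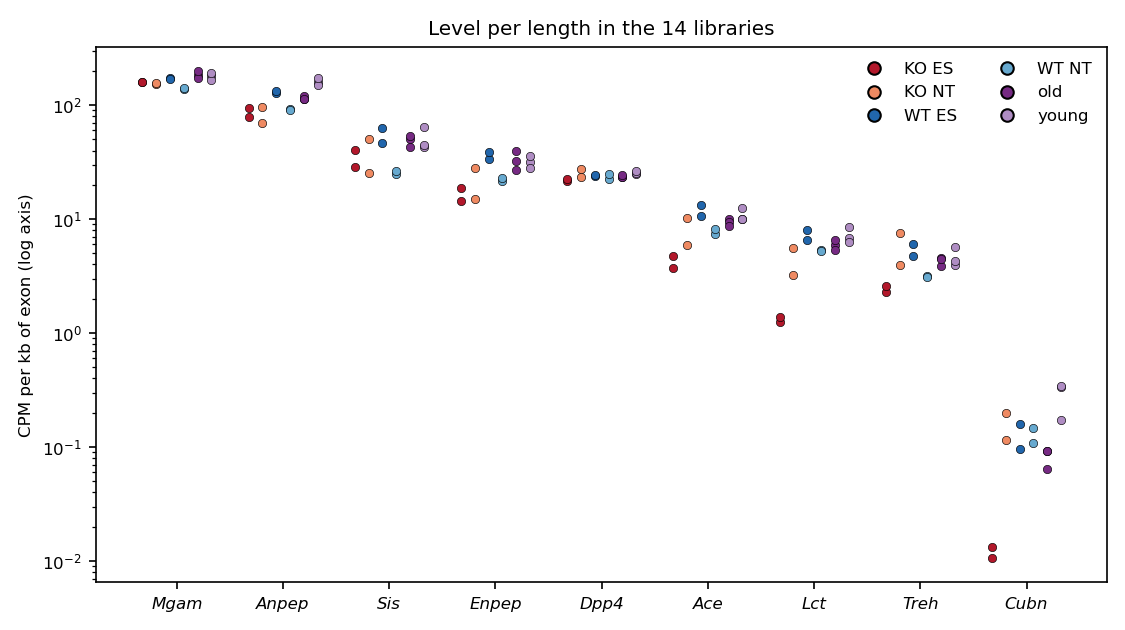
Level of each gene in each of the 14 libraries, in CPM per kb of exon on a log axis, with 1 point a library coloured by group. Mgam and Anpep are at the top and Cubn is at the bottom, and the KO ES libraries are lowest for Lct, Treh, Dpp4, Ace and Cubn.

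Among the glycosidases, Mgam (maltase-glucoamylase, which releases glucose from starch fragments; chromosome 6, 40628831 to 40769123, plus strand) stayed within a narrow band. It had 1377 and 1379 CPM in KO ES, 1335 and 1375 CPM in KO NT, 1514 and 1490 CPM in WT ES, and 1215 and 1229 CPM in WT NT libraries. The WT ES pair was highest and the WT NT pair lowest, and neither overlapped any other group. Sis (sucrase-isomaltase, which splits sucrose and isomaltose; chromosome 3, 72888557 to 72967863, minus strand) had 214 and 299 CPM in KO ES, 191 and 380 CPM in KO NT, 345 and 474 CPM in WT ES, and 186 and 196 CPM in WT NT libraries. Only the WT NT pair was tight, and the KO NT pair spanned the KO ES values.

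Lct (lactase, the milk sugar enzyme; chromosome 1, 128284756 to 128328318, minus strand) had 7.999 and 8.88 CPM in KO ES, 20.7 and 35.5 CPM in KO NT, 41.9 and 51.8 CPM in WT ES, and 34.4 and 33.9 CPM in WT NT libraries. Both KO ES libraries lay below every other Chrm3 library. Treh (trehalase, which splits trehalose; chromosome 9, 44673233 to 44686305, plus strand) had 4.70 and 5.31 CPM in KO ES, 8.03 and 15.6 CPM in KO NT, 9.82 and 12.4 CPM in WT ES, and 6.47 and 6.42 CPM in WT NT libraries. Its KO ES pair was again lowest, and KO NT replicate 2 was highest.

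Among the peptidases, Anpep (aminopeptidase N, which removes neutral amino acids from peptide ends; chromosome 7, 79821803 to 79861059, minus strand) had 326 and 389 CPM in KO ES, 289 and 399 CPM in KO NT, 527 and 548 CPM in WT ES, and 382 and 377 CPM in WT NT libraries. The WT ES pair stood above all others. Dpp4 (dipeptidyl peptidase 4, which also cleaves incretin hormones; chromosome 2, 62330073 to 62412231, minus strand) had 137 and 142 CPM in KO ES, 147 and 174 CPM in KO NT, 152 and 153 CPM in WT ES, and 143 and 156 CPM in WT NT libraries, so only its KO ES pair was set off, and narrowly.

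Enpep (aminopeptidase A, which removes acidic residues and cleaves angiotensin II; chromosome 3, 129269175 to 129332720, minus strand) had 68.2 and 87.8 CPM in KO ES, 70.5 and 133 CPM in KO NT, 159 and 183 CPM in WT ES, and 101 and 108 CPM in WT NT libraries. Ace is angiotensin-converting enzyme, a peptidase of the brush border (chromosome 11, 105967945 to 105989964, plus strand). It had 19.8 and 24.9 CPM in KO ES and 31.6 and 54.6 CPM in KO NT libraries. In WT ES libraries it had 56.9 and 69.9 CPM, and in WT NT libraries 39.0 and 43.7 CPM. For both genes the WT ES pair was highest, and for Ace the KO ES pair was lowest without overlap. Ace and Enpep are also made by vessel cells, whose 8 markers summed to 2.47 to 3.11 CPM in KO ES, 1.43 to 1.94 CPM in KO NT, 1.87 to 2.08 CPM in WT ES and 1.73 to 2.72 CPM in WT NT libraries.

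Cubn (cubilin; chromosome 2, 13276338 to 13491813, minus strand) was the least abundant of the 9. It had 0.159 and 0.199 CPM in KO ES (5 and 7 counts), 1.72 and 2.97 CPM in KO NT, 1.43 and 2.39 CPM in WT ES, and 1.63 and 2.18 CPM in WT NT libraries. The other 3 groups overlapped one another, and both KO ES libraries were far below them. On the opposite strand, exons of annotated genes overlap 368 bases of Cubn exons, 295 of Ace, 232 of Dpp4 and 2 of Treh. The kit keeps strand, but whether counting used it was not stated, so reads over those bases cannot be assigned with certainty.

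**Figure D2:**
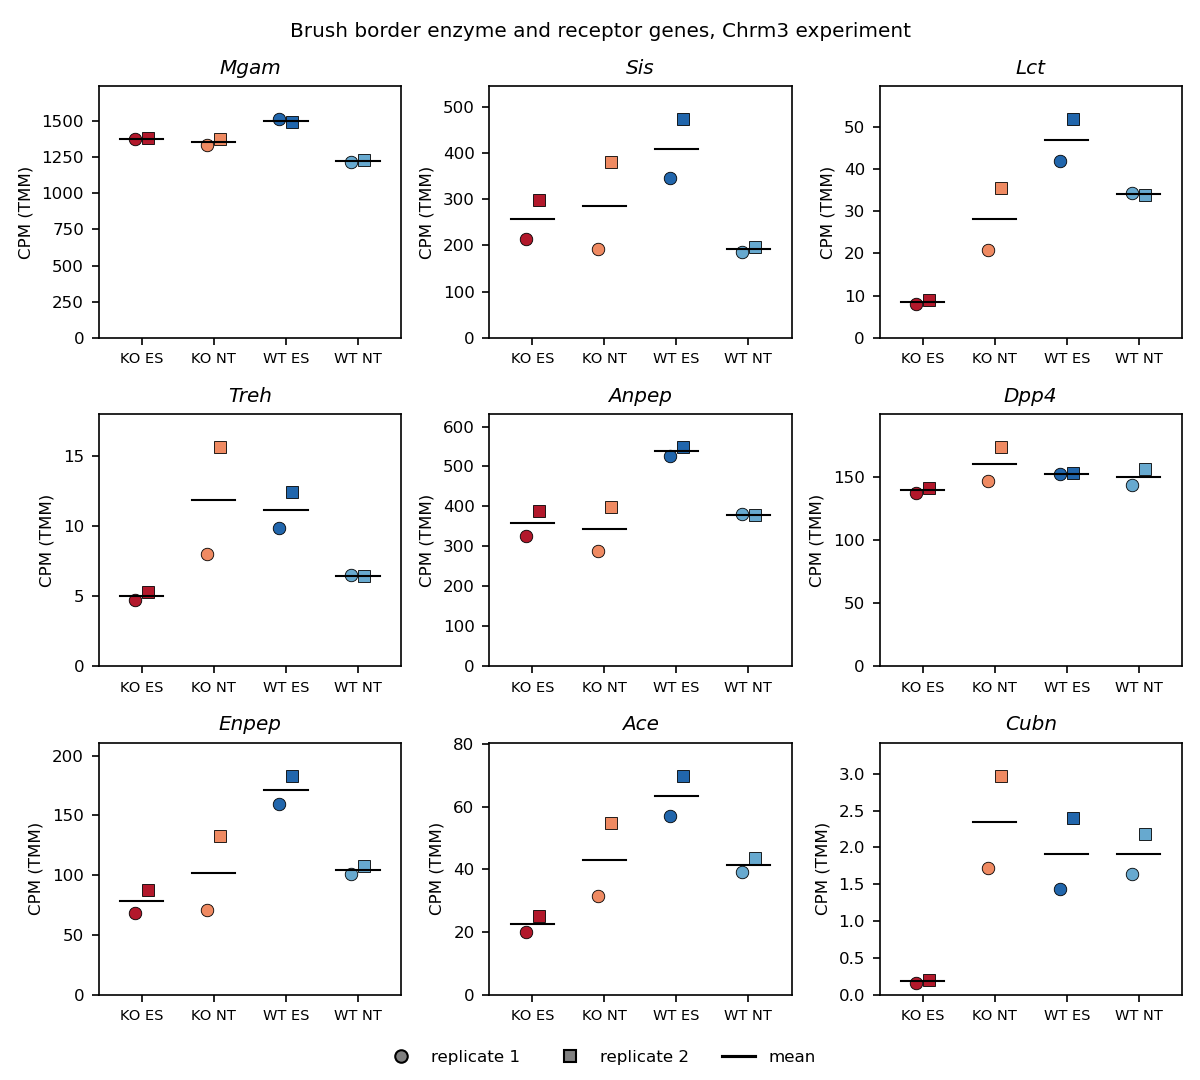
Level of each gene in CPM in the 8 Chrm3 libraries, by group, with 1 point a library, shapes for replicates and a line at the mean. The KO ES libraries are lowest for Lct, Treh, Dpp4, Ace and Cubn, for Dpp4 narrowly, and KO NT replicate 2 lies above replicate 1 in all 9 panels.

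KO against WT within ES compares tamoxifen-injected with vehicle-injected Chrm3flox/flox mice after the ES modelling. In KO ES libraries 6 of the 9 genes fell: lactase, trehalase, 3 of the 4 peptidases (Anpep, Enpep and Ace) and the cubilin receptor. Lct averaged 8.44 ± 0.62 CPM in KO ES and 46.8 ± 7.04 CPM in WT ES libraries (SD, n = 2 each), which is 5.53-fold lower. Cubn was 10.3-fold lower. Among all tested genes 4.47% fell in this comparison, 3.09% rose and 7.56% changed in either direction. All 9 genes lay lower in KO ES without overlap, as 26.3% of all tested genes did, while another 27% lay higher. The median log2 fold change was -1.13 over the 9 genes and 0.004 over all tested genes.

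The log2 fold changes in edgeR's quasi-likelihood test were -2.47 ± 0.22 for Lct (adjusted p = 0.000147), -1.14 ± 0.29 for Treh (adjusted p = 0.0369), -1.50 ± 0.22 for Ace (adjusted p = 0.00255), -1.13 ± 0.23 for Enpep (adjusted p = 0.0136), -0.59 ± 0.13 for Anpep (adjusted p = 0.0195) and -3.36 ± 0.61 for Cubn (adjusted p = 0.00925). Sis, Mgam and Dpp4 did not pass: Sis was at -0.67 ± 0.26 (adjusted p = 0.154), Mgam at -0.12 ± 0.05 (adjusted p = 0.17) and Dpp4 at -0.13 ± 0.08 (adjusted p = 0.378).

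Lct and Ace passed with any 1 of the 8 libraries left out, at adjusted p up to 0.00435 and 0.0257. The other calls each missed the threshold in some of these fits. The WT NT libraries are in neither group and enter through the shared fit. Without either of them Treh stayed at -1.14 and Anpep at -0.587. Cubn missed the threshold without WT ES replicate 2 (adjusted p = 0.0704) or KO ES replicate 2 (0.0769), and Enpep without WT ES replicate 2 (0.0927), KO ES replicate 1 (0.0862) or KO ES replicate 2 (0.053). Anpep missed it without WT NT replicate 1 (0.0502) or 2 (0.0514), WT ES replicate 1 (0.0779) or 2 (0.11), or KO ES replicate 1 (0.106). Treh missed it without WT NT replicate 1 (0.0739) or 2 (0.0756), WT ES replicate 1 (0.0828) or 2 (0.213), or KO ES replicate 1 (0.132) or 2 (0.156). Sis passed without KO NT replicate 1 (0.0157) or 2 (0.0128), libraries in neither group.

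Other genes of the same surface were read beside them. Of 13 other brush border hydrolases, 12 were tested, and 10 fell and 1 rose in KO ES, with a median log2 fold change of -1.31. Xpnpep2, a proline aminopeptidase, was at -1.22 ± 0.13 (adjusted p = 0.00049), the intestinal alkaline phosphatase Alpi at -1.49 ± 0.22 (0.00263) and the peptidase Naaladl1 at -0.97 ± 0.15 (0.00436). The gene that rose was Mep1a, the alpha subunit of the protease meprin, at 0.86 ± 0.16 (adjusted p = 0.0112). It had 17.6 and 16.2 CPM in KO ES, against 7.93 and 10.8 CPM in WT ES libraries, and was singled out after its value was seen.

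Of 10 transporters that take up the sugars and peptides these enzymes release, 7 fell and none rose, with a median of -0.72. The oligopeptide transporter Slc15a1 was at -2.15 ± 0.39 (edgeR adjusted p = 0.00893), and the amino acid transporters Slc6a19, Slc6a20a and Slc7a9 were at -1.47 ± 0.25 (0.006), -0.97 ± 0.19 (0.0129) and -0.80 ± 0.14 (0.0085). Of 5 cubilin partners, 3 were tested and 2 fell: Amn, which anchors cubilin in the membrane, at -0.74 ± 0.12 (0.00378), and Tcn2, which carries vitamin B12 in blood, at -0.68 ± 0.07 (0.000405). Lrp2, a co-receptor of cubilin in kidney, had 0 counts in all 14 libraries. Of 12 transcription factors known to regulate brush border enzyme genes, Hnf4g fell by 0.54 ± 0.09 (adjusted p = 0.0046) and none rose, with a median of 0.10.

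Markers of cell types moved in this comparison too. The 18 absorptive enterocyte markers counted 13 that fell and none that rose (median -0.84), and summed to 2252 to 2308 CPM in KO ES and 3166 to 3501 CPM in WT ES libraries. Fabp1, a fatty acid carrier, was at -2.16 ± 0.24 (edgeR adjusted p = 0.000553), the antimicrobial lectin Reg3a at -1.67 ± 0.21 (0.00103), the fatty acid transporter Slc27a4 at -0.61 ± 0.08 (0.00114) and the apolipoprotein Apoa1 at -1.83 ± 0.25 (0.00179). All 8 goblet markers fell (median -1.06), with sums of 4327 to 4365 CPM in KO ES and 10140 to 10350 CPM in WT ES libraries, as did 7 of 8 enteroendocrine markers (median -0.80, sums of 149.8 to 156.3 CPM in KO ES and 252.8 to 267.3 CPM in WT ES) and 4 of 7 tested tuft markers. Of 12 stem cell markers 5 rose (median 0.18), among them Olfm4 and Msi1 at 0.46 ± 0.07 each, and the list summed to 14600 to 15350 CPM in KO ES and 11500 to 11880 CPM in WT ES libraries. The part of these cell types in the fall of the 9 genes was not tested.

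**Figure D3:**
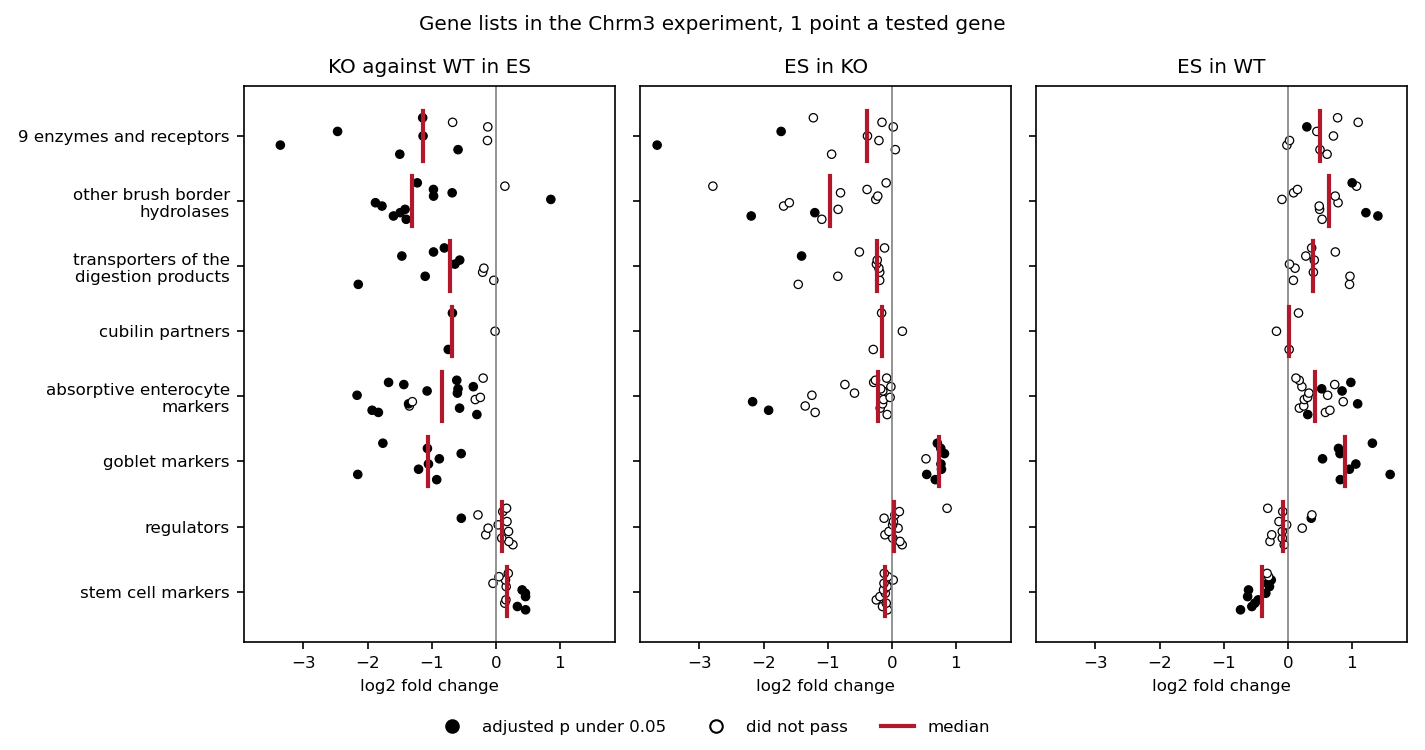
Log2 fold change of every tested gene of 8 lists in 3 comparisons of the Chrm3 experiment, with filled points past an edgeR adjusted p of 0.05 and a red line at the list's median. The brush border genes and enterocyte markers lie mostly below 0 for KO against WT in ES and mostly above 0 for ES in WT, while goblet markers lie above 0 for ES in both genotypes.

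ES against NT within KO asks what the ES modelling changed in the tamoxifen-injected mice. Lactase and cubilin fell, and the remaining 7 genes did not pass. Of all tested genes 0.0979% fell, 0.415% rose and 0.513% changed in either direction. Lct averaged 8.44 ± 0.62 CPM in KO ES and 28.1 ± 10.5 CPM in KO NT libraries (SD, n = 2 each), a log2 fold change of -1.73 ± 0.23 (edgeR adjusted p = 0.0123). Cubn averaged 0.179 ± 0.028 CPM in KO ES and 2.35 ± 0.88 CPM in KO NT libraries, a log2 fold change of -3.66 ± 0.57 (adjusted p = 0.0235).

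Of the others, Treh was at -1.22 ± 0.28 (edgeR adjusted p = 0.103) and Ace at -0.94 ± 0.22 (adjusted p = 0.11), both without overlap between the groups. Enpep was at -0.38 ± 0.23, Dpp4 at -0.20 ± 0.08, Sis at -0.15 ± 0.26, Anpep at 0.06 ± 0.13 and Mgam at 0.02 ± 0.05, with adjusted p from 0.494 for Dpp4 to 0.97 for Anpep. In all, 5 genes lay lower and 1 higher in KO ES without overlap, against 16.1% and 17.1% of all tested genes.

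These calls changed with the libraries used. Lct missed the threshold without WT NT replicate 2 (edgeR adjusted p = 0.0503), KO ES replicate 1 (0.112) or KO ES replicate 2 (0.104), and Cubn without WT NT replicate 1 (0.0592) or 2 (0.0633) or KO ES replicate 1 (0.154) or 2 (0.184). Without KO NT replicate 1, which leaves replicate 2 alone in its group and assumes that it varies like the others, 5 genes fell: Lct, Cubn, Treh at -1.64 (0.000674), Ace at -1.28 (0.00114) and Enpep at -0.77 (0.0112). With KO NT replicate 2 left out, Lct at -1.30 (0.00104) and Cubn at -3.24 (0.0334) fell, while Treh at -0.68 (0.205), Ace at -0.50 (0.24) and Enpep at 0.14 (0.78) did not pass. The KO ES libraries are the same as in the comparison of KO with WT in ES, so these falls are not independent of those.

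Among the other lists, 2 of 12 hydrolases fell and none rose within KO (median -0.96): the alkaline phosphatases Akp3 at -2.19 ± 0.32 (edgeR adjusted p = 0.02) and Alpi at -1.20 ± 0.22 (0.042). Of 10 transporters, Slc6a19 fell by 1.41 ± 0.24 (0.0353) and the median was -0.23. None of the 12 regulators or 3 tested cubilin partners passed. The enterocyte markers counted 2 lower of 18, Apoa4 at -1.92 ± 0.26 (0.0154) and the detoxifying enzyme Cyp3a11 at -2.17 ± 0.36 (0.0275), with a median of -0.22 and sums of 2252 to 2308 CPM in KO ES and 2403 to 2966 CPM in KO NT libraries. Goblet markers went the other way, with 7 of 8 higher (median 0.74) and sums of 4327 to 4365 CPM in KO ES and 2540 to 2610 CPM in KO NT libraries. Paneth markers also rose, 4 of 8 with none lower (median 0.52), while no enteroendocrine or tuft marker passed. Of 12 stem cell markers none passed (median -0.11). Their part in the result was not tested. When KO NT replicate 1 was left out, the medians were -1.39 for hydrolases, -0.50 for transporters and -0.42 for enterocyte markers. When replicate 2 was left out they were -0.54, -0.09 and -0.16. The named genes of these lists kept their direction in both fits.

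ES against NT within WT asks what the ES modelling changed in the vehicle-injected mice. Maltase-glucoamylase rose, and the other 8 genes did not pass. Of all tested genes 2.1% rose, 1.39% fell and 3.48% changed in either direction. Mgam averaged 1502 ± 17.0 CPM in WT ES and 1222 ± 9.90 CPM in WT NT libraries (SD, n = 2 each), a log2 fold change of 0.30 ± 0.05 (edgeR adjusted p = 0.014). Sis was at 1.10 ± 0.27 (adjusted p = 0.0506) and Anpep at 0.50 ± 0.13 (0.0567), just outside the threshold. Treh was at 0.78 ± 0.28 (0.159), Enpep at 0.71 ± 0.22 (0.113), Ace at 0.61 ± 0.21 (0.139), Lct at 0.45 ± 0.19 (0.241), Dpp4 at 0.03 ± 0.08 (0.903) and Cubn at -0.01 ± 0.37 (0.993).

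All but Dpp4 and Cubn lay higher in WT ES without overlap, that is 7 of 9 genes, against 26% of all tested genes, with none lower (26.9% of all tested genes). The same 7 had an unadjusted p under 0.05 in edgeR. The highest of these, 0.0396 for Lct, ranked 2852 of the 17364 tested genes, so such p-values were common over all tested genes. How many passed depended on the KO NT libraries, which are in neither group and enter through the shared fit (spread, scaling and filter). Their removal moved these fold changes little, for Sis to 1.11 without KO NT replicate 2. With KO NT replicate 1 left out, the log2 fold changes of the 7 genes ran from 0.298 for Mgam to 1.099 for Sis. With replicate 2 left out they ran from 0.314 for Mgam to 1.114 for Sis. More of the 7 passed in edgeR in these fits. The number called over all genes was also highest with KO NT replicate 2 left out, so the gain was not particular to these genes. Mgam itself missed the threshold without WT NT replicate 1 (0.177) or 2 (0.18) or WT ES replicate 1 (0.1) or 2 (0.0568).

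Of the other hydrolases 3 of 12 rose and none fell (median 0.64), namely Xpnpep2 at 1.01 ± 0.13 (edgeR adjusted p = 0.00441), Alpi at 1.22 ± 0.22 (0.0158) and Akp3 at 1.41 ± 0.34 (0.0489). None of the 10 transporters passed (median 0.39). Hnf4g was the regulator that rose, at 0.37 ± 0.09 (0.0469). Of the enterocyte markers 5 of 18 rose (median 0.43), among them Clec2h at 1.09 ± 0.22 (0.0274) and the keratin Krt20 at 0.85 ± 0.18 (0.0358), and the list summed to 3166 to 3501 CPM in WT ES and 2632 to 2646 CPM in WT NT libraries. All 8 goblet markers rose (median 0.89), with sums of 10140 to 10350 CPM in WT ES and 4991 to 5106 CPM in WT NT libraries. So did 3 of 8 Paneth markers (median 0.32) and 3 of 8 enteroendocrine markers (median 0.60), with none lower. No tuft marker passed. Of 12 stem cell markers 10 fell (median -0.40), with sums of 11500 to 11880 CPM in WT ES and 14770 to 15090 CPM in WT NT libraries. Their part in the result was not tested.

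The difference between the ES effects, KO minus WT, was tested as an interaction. Lactase passed, at -2.18 ± 0.30 on the log2 scale (edgeR adjusted p = 0.0352), where 0.0979% of all tested genes passed in that direction, 0.0115% in the other and 0.109% in either. All 9 estimates were negative: Cubn was at -3.65 ± 0.72 (adjusted p = 0.112), Treh at -2.00 ± 0.39 (0.112), Ace at -1.55 ± 0.30 (0.112), Sis at -1.25 ± 0.37 (0.231), Enpep at -1.09 ± 0.32 (0.221), Anpep at -0.45 ± 0.18 (0.383), Mgam at -0.27 ± 0.07 (0.179) and Dpp4 at -0.23 ± 0.11 (0.485). The 9 values share all 8 libraries. Lct missed the threshold without WT NT replicate 1 (0.252) or 2 (0.283), WT ES replicate 2 (0.0838) or KO ES replicate 1 (0.161) or 2 (0.181). With KO NT replicate 1 left out, the 9 estimates ran from -0.29 for Mgam to -4.00 for Cubn. With replicate 2 left out they ran from -0.13 for Dpp4 to -3.24 for Cubn. More of the 9 passed with replicate 1 left out, where the number called over all genes was also highest. In the other lists, the phosphatases Alpi (-2.42 ± 0.31, adjusted p = 0.0222) and Akp3 (-3.60 ± 0.47, 0.0246) and the apolipoprotein Apoa4 (-2.58 ± 0.36, 0.0405) passed, with and without either KO NT library, and so did the goblet marker Clca1 (-1.05 ± 0.13, 0.0222). In all, 2 of 12 hydrolases passed as lower (median -1.48), 0 of 10 transporters (median -0.61), 1 of 18 enterocyte markers (median -0.95, all 18 negative), 0 of 12 stem cell markers (median 0.26, all 12 positive) and 1 of 8 goblet markers (median -0.16). Medians with KO NT replicate 1 left out were -1.91 for hydrolases, -0.90 for transporters, -1.21 for enterocyte markers and 0.38 for stem cell markers. With replicate 2 left out they were -1.05, -0.36, -0.64 and 0.21. The part of these cell types in the values of the 9 genes was not tested.

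**Figure D4:**
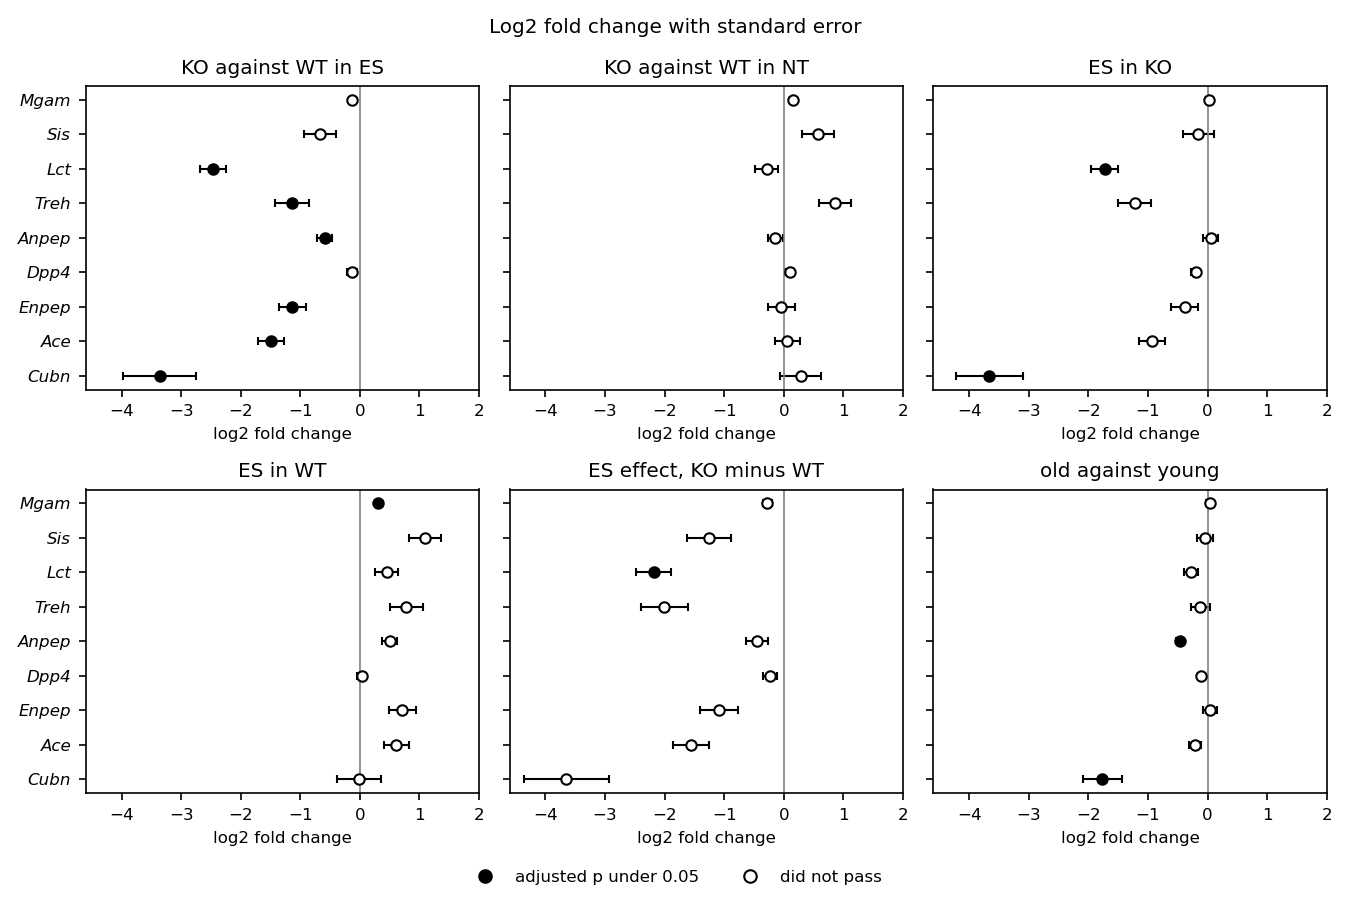
Log2 fold change of each gene in 6 comparisons, with bars of 1 SE and filled points past an edgeR adjusted p of 0.05. Filled points number 6 in the panel of KO against WT in ES, 2 in each of ES in KO and old against young, 1 in each of ES in WT and KO minus WT, and 0 in the remaining panel.

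KO against WT within NT compares tamoxifen-injected with vehicle-injected mice without the ES modelling. None of the 9 genes passed in edgeR, where 2.36% of all tested genes rose, 2.11% fell and 4.47% changed in either direction. Treh and Mgam lay higher in KO NT without overlap, against 22.7% of all tested genes, and none of the 9 lay lower (25.4% of all tested genes). An unadjusted p under 0.05 in edgeR was reached by 2 of them, Treh (0.00904) and Mgam (0.0142). By p they ranked 1364 and 1686 of the 17364 tested genes, and Sis, at 0.0526, ranked 3142. Such p-values were thus common over all tested genes. DESeq2 called 1 gene and limma-voom 0. Treh was at 0.86 ± 0.27 (adjusted p = 0.115), Sis at 0.58 ± 0.27 (0.291), Mgam at 0.15 ± 0.05 (0.146) and Lct at -0.29 ± 0.20 (0.501), and the others lay between -0.14 for Anpep and 0.29 for Cubn. The direction of 6 genes turned on which KO NT library was left out. Each such fit leaves 1 KO NT library and assumes that it varies like the others. Without KO NT replicate 2, Lct was at -0.71, Enpep at -0.55 and Anpep at -0.38. Without KO NT replicate 1, Treh was at 1.28 and Sis at 0.99.

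In the same comparison 4 of 12 other hydrolases rose and none fell (median 0.32): Mep1a at 1.02 ± 0.16 (edgeR adjusted p = 0.00522), Akp3 at 2.00 ± 0.32 (0.00621), Alpi at 0.93 ± 0.22 (0.0354) and Tmprss15, the enteropeptidase that activates trypsin, at 4.01 ± 0.66 (0.00699). Alpi did not pass without KO NT replicate 2 (0.47, 0.073) and the median was -0.07, and the other named genes passed without either KO NT library. Tmprss15 had 54 and 78 counts in KO NT libraries, against 3 and 4 counts in WT NT libraries. No transporter or regulator passed, and Tcn2 fell by 0.35 ± 0.07 (0.0191), but not without KO NT replicate 1 (adjusted p = 0.0692). The transporter median was 0.48 without KO NT replicate 1 and -0.13 without replicate 2. Of 18 enterocyte markers 1 rose, Cyp3a11 at 1.74 ± 0.34 (0.0178), with a list median of 0.02. All 8 goblet markers fell (median -0.94), and 6 of 7 tested tuft markers fell (median -1.37). Their part in the values of the 9 genes was not tested.

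Old against young asks which of these genes differ with age. In old libraries aminopeptidase N and cubilin fell, while the other 7 genes did not pass. Of all tested genes 3.42% fell, 4.42% rose and 7.84% changed in either direction. Anpep had 467, 497 and 472 CPM in old libraries, against 656, 616 and 715 CPM in young libraries. Every old library lay below every young one, at a log2 fold change of -0.47 ± 0.06 (edgeR adjusted p = 0.000982). Cubn had 0.965, 1.38 and 1.38 CPM in old libraries, against 5.02, 2.59 and 5.09 CPM in young libraries. Its groups did not overlap either, at -1.76 ± 0.33 (adjusted p = 0.00744), which is 3.39-fold lower. Both passed with any 1 of the 6 libraries left out, at adjusted p up to 0.0118 for Anpep and 0.049 for Cubn.

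Dpp4 had 148 to 153 CPM in old and 158 to 168 CPM in young libraries and did not overlap, but did not pass (-0.11 ± 0.05, edgeR adjusted p = 0.241). Counting Dpp4, 3 of 9 genes lay lower in old without overlap, against 13.2% of all tested genes. Lct ranged over 34.4 to 41.6 CPM in old and 40.0 to 54.5 CPM in young libraries (-0.28 ± 0.11, adjusted p = 0.182), and Ace over 45.8 to 53.5 CPM in old and 52.6 to 66.2 CPM in young libraries (-0.21 ± 0.10, 0.241). Both overlapped between the ages. Treh was at -0.12 ± 0.16, Sis at -0.04 ± 0.14, Enpep at 0.04 ± 0.12 and Mgam at 0.05 ± 0.07, with adjusted p from 0.742 for Treh to 0.908 for Sis. For Mgam the approximate 95% interval of the log2 difference ran from -0.08 to 0.17.

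**Figure D5:**
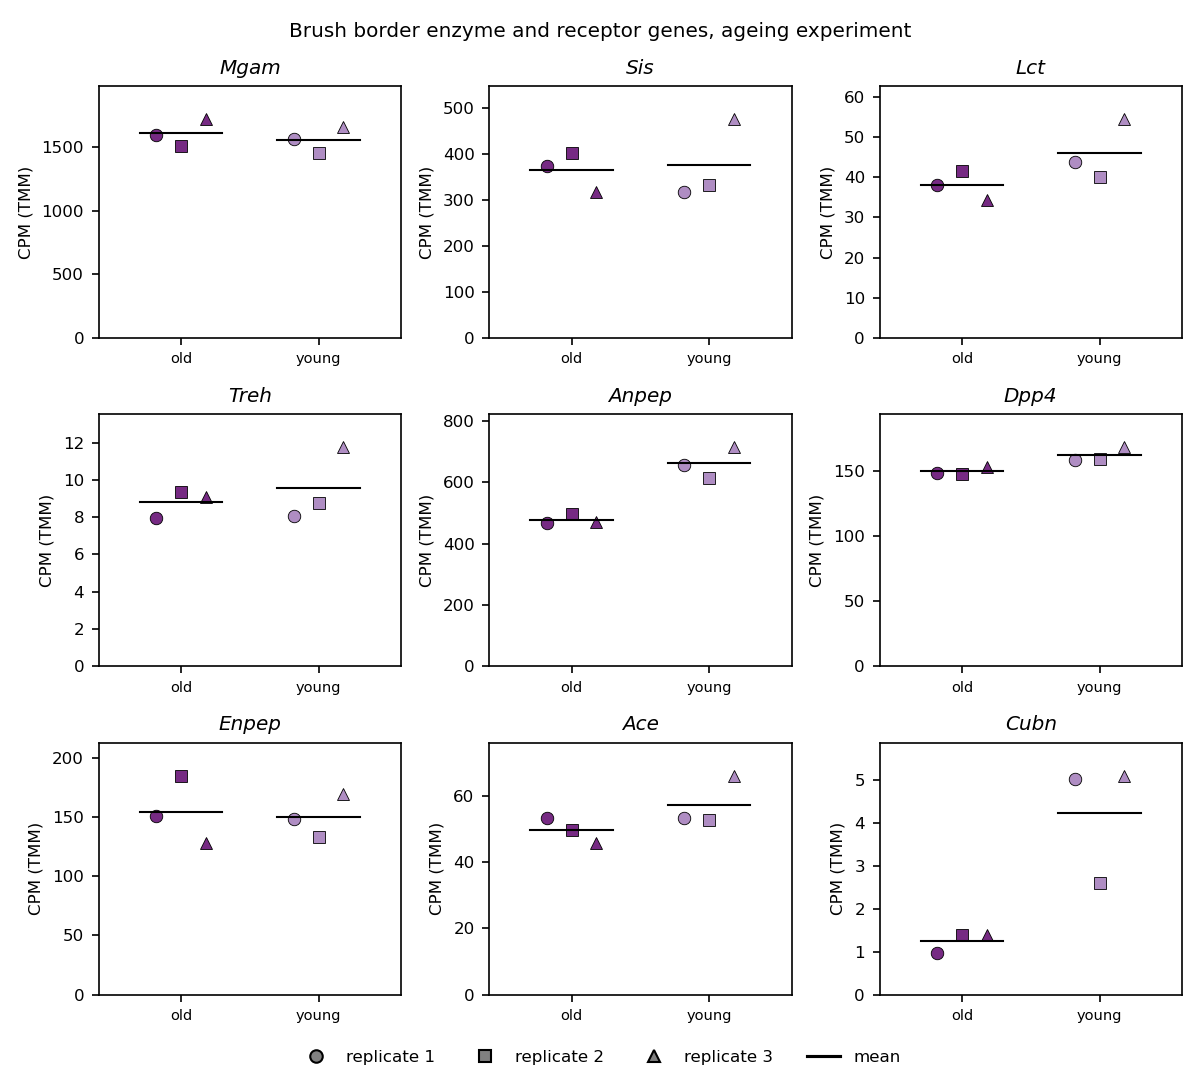
Level of each gene in CPM in the 3 old and 3 young libraries, with 1 point a library, shapes for replicates and a line at the mean. Anpep, Cubn and Dpp4 are lower in every old library than in any young one, and the other 6 overlap.

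Beside them, the other hydrolases split with age, 2 higher and 2 lower of 12 (median -0.06), among them Naaladl1 at 0.64 ± 0.14 (edgeR adjusted p = 0.0172), Mep1b at 0.42 ± 0.09 (0.0128) and Akp3 at -0.81 ± 0.21 (0.0367). Of 10 transporters the fructose transporter Slc2a5 fell by 0.62 ± 0.14 (0.0211), with a median of -0.19, and none of the cubilin partners passed. Of 12 regulators 3 rose and 2 fell (median -0.01), with Hnf4g at 0.39 ± 0.09 (0.0207), Klf5 at 0.23 ± 0.06 (0.0304) and Gata5 at -0.27 ± 0.07 (0.042) among those that passed. Enterocyte markers rose where they passed, 5 of 18 (median 0.11), including Fabp1 at 0.93 ± 0.14 (0.00265) and Krt20 at 0.59 ± 0.10 (0.00599), and summed to 2969 to 3217 CPM in old and 2690 to 3011 CPM in young libraries. Markers of immune cells, some of which also make Anpep and Dpp4, were higher in old libraries: 6 of 7 tested markers rose (median 1.87), the 9 listed markers summed to 143.3 to 158.9 CPM in old and 51.04 to 75.16 CPM in young libraries, and Cd8a was at 2.63 ± 0.19 (1.86e-05). Tuft markers were lower (6 of 7 tested fell, median -1.08), with sums of 82.69 to 83.86 CPM in old and 158.8 to 196.2 CPM in young libraries. Of 8 enteroendocrine markers 5 rose (median 0.71), with sums of 328.7 to 478.9 CPM in old and 227.9 to 253.9 CPM in young libraries. Of 8 Paneth markers 4 fell and none rose (median -0.36), of 8 goblet markers 3 rose and 2 fell (median 0.15), and of 12 stem cell markers 1 rose and 1 fell (median -0.06). Their part in the result was not tested.

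For each gene the non-member genes with the most similar pattern over the 8 Chrm3 libraries were found from the root mean square difference (RMS) of centred log2 CPM values among 11949 genes. Lct was nearest to Fabp1, at an RMS of 0.204, and Apoa1, at 0.298, where its own log2 values had an SD of 1.02. Ace was nearest to Rbp2, a retinol carrier, at 0.101. Enpep was nearest to Arg2, at 0.077, and the meprin beta subunit Mep1b, at 0.098, and Treh to the apolipoprotein Apoc2, at 0.156, and the glucose transporter Slc2a2, at 0.175. Sis was nearest to Papss2, a sulfate donor enzyme, at 0.147, Anpep to Sec24d, at 0.052, Mgam to Rgs3, at 0.026, and Dpp4 to E2f5, at 0.042. Mgam and Dpp4 themselves varied little, with SDs of 0.114 and 0.104, so a small RMS is easily reached. Cubn was nearest to Slc7a15, at 0.519, where its own SD was 1.62 and its KO ES libraries had 5 and 7 counts. The RMS was not scaled to a gene's SD, so it does not rank closeness between genes. These points share libraries and groups, and the likeness is a description over 8 libraries.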

How the data were processed

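Polyadenylated RNA from sorted cells was sequenced. Per the labels, Trizol extraction gave 1 µg of total RNA for each strand-specific TruSeq library. The submitters' processing notes name mm10 and FastQC 0.11.2, and no source used here gives the aligner, counter or strand setting. The authors deposited raw counts per gene, in 1 table for the 8 Chrm3 libraries and another for the 6 ageing libraries, which were normalised and tested separately. Columns named Ctrl were read as NT.

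From these counts, genes were kept with the defaults of filterByExpr (minimum count 10, minimum total 15), scaled with TMM, and tested with edgeR 4.0.16 (R 4.3.3; quasi-likelihood in its newer form). All 8 Chrm3 libraries shared 1 estimate of the spread. P-values were adjusted by Benjamini-Hochberg across the tested genes of a table. Rose and fell are used where the adjusted p was under 0.05. A log2 fold change carries an approximate SE from its F statistic. Levels are CPM, and per length CPM per kb of exon in GENCODE M21 (GRCm38). Promoter sequences are from RefSeq (GRCm38.p6). The script was tested on simulated data. Alternatives were DESeq2 1.42.0, limma-voom 3.58.1, other scaling, filters, thresholds and left-out libraries.

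All 9 genes are named. From each other list up to 4 called genes with the smallest p were eligible, and up to 3 genes most like each member; some eligible genes are not reported here. The members and lists were chosen with earlier results of these data known.

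Depth was 26683563 to 36882310 counts a library. Mitochondrial genes took 6.12 to 8.74% of counts.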

Additional observations from a re-analysis of the deposited data

Results flagged for a closer look

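The ES effect on Lct differed between genotypes by the interaction test in edgeR. In KO it was -1.73 ± 0.23 on the log2 scale and in WT 0.45 ± 0.19, a difference of -2.18 ± 0.30 (adjusted p = 0.0352). Lct was lower in 2 of 2 KO ES libraries than in both KO NT libraries, and higher in 2 of 2 WT ES libraries than in both WT NT libraries. Its levels were 7.999 and 8.88 CPM in KO ES and 20.7 and 35.5 CPM in KO NT, and 41.9 and 51.8 CPM in WT ES and 34.4 and 33.9 CPM in WT NT libraries. With 1 library left out at a time the adjusted p ranged from 2.71e-05 to 0.283.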

How the results depend on the processing

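The number of the 9 genes called was 6 for KO against WT in ES, 2 for ES in KO, 1 for ES in WT, 0 for KO against WT in NT, 1 for the difference of the ES effects and 2 for old against young. For old against young it did not move by over 1.5 times under any alternative. For KO against WT in ES it moved to 3 with no filter on low counts and to 3 at an adjusted p under 0.01. ES in KO gave 0 with no filter, 1 in limma-voom, 1 with the compared groups only and 0 at 0.01. ES in WT gave 2 with RLE size factors, 3 with a filter at 1 CPM, 2 in DESeq2, 7 with the compared groups only, 0 at 0.01 and 3 at 0.10. KO against WT in NT gave 1 in DESeq2. The difference of the ES effects gave 0 with no filter, 5 in DESeq2, 0 in limma-voom and 0 at 0.01. The causes were not tested. Fits with no filter adjust over more genes and also estimate the spread on that larger set, and these parts were not separated. An older form of the quasi-likelihood test, and list results without each KO NT library, were added after seeing the data.

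Over all genes, counts called in the order of KO against WT in ES, ES in KO, ES in WT, KO against WT in NT, difference and old against young were 1312, 89, 605, 776, 19 and 1318. They were 593, 8, 114, 317, 0 and 666 with no filter, and 445, 15, 105, 266, 2 and 569 at 0.01. The threshold of 0.10 gave 2178, 188, 1223, 1262, 49 and 1991. DESeq2 gave 226, 1028 and 211 for ES in KO, ES in WT and the difference. The compared groups alone gave 24 for ES in KO and 1875 for ES in WT, and for the difference limma-voom gave 8 and the older form 11.

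Whether replicate numbers pair the samples was not settled. Correlations of same-numbered libraries' deviations ran from -0.008 to 0.103 in the Chrm3 experiment and from 0.005 to 0.084 in the ageing experiment. In the ageing experiment 4 of 6 libraries correlated best with their own number. With 2 libraries a group the deviations mirror each other, so each pair of Chrm3 groups gives only 1 value. With the replicate block 7, 4, 5, 1, 5 and 2 of the 9 genes and 1758, 206, 970, 998, 104 and 2019 of all genes were called, in the same order. Of 54 results for the 9 genes, the block lost 0 calls and gained 12.

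With 1 library left out at a time the number of the 9 genes called ranged over 2 to 7 for KO against WT in ES, 0 to 5 for ES in KO, 0 to 7 for ES in WT, 0 to 3 for KO against WT in NT, 0 to 7 for the difference and 2 to 2 for old against young. Over all genes the counts ranged over 375 to 1936, 11 to 278, 23 to 1209, 145 to 848, 0 to 363 and 636 to 1485. No called gene changed sign. Of log2 fold changes that had not passed, these changed sign. For ES in WT, Dpp4 ranged over -0.029 to 0.088 and Cubn over -0.405 to 0.332. For ES in KO, Sis ranged over -0.564 to 0.419, Anpep over -0.158 to 0.302 and Enpep over -0.766 to 0.141. For KO against WT in NT, Lct ranged over -0.709 to 0.058, Anpep over -0.38 to 0.074, Dpp4 over -0.01 to 0.215, Enpep over -0.554 to 0.347, Ace over -0.373 to 0.402 and Cubn over -0.126 to 0.646. For old against young, Sis ranged over -0.151 to 0.166, Treh over -0.225 to 0.059, Mgam over -0.004 to 0.091 and Enpep over -0.111 to 0.164. Cubn for ES in WT was also 0.007 in DESeq2 and Ace for KO against WT in NT -0.004 in limma-voom. Depth limits Cubn, with 5 and 7 counts in KO ES libraries.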

Other observations

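Markers of the position along the intestine were present beside the brush border genes. Slc40a1, the iron exporter of the proximal small intestine, fell by 1.24 ± 0.19 on the log2 scale in KO against WT within ES (edgeR adjusted p = 0.00327), rose by 1.26 ± 0.20 in KO against WT within NT (0.00644) and rose by 1.78 ± 0.20 with ES in WT (0.00193). It averaged 9.85 CPM in KO ES, 16.4 CPM in KO NT, 23.3 CPM in WT ES and 6.78 CPM in WT NT libraries. The ES effects on it differed by -2.502 ± 0.28 between KO and WT (0.0115). The proximal list as a whole summed to 383.5 to 412.7 CPM in KO ES, 390.9 to 407 CPM in KO NT, 427.9 to 444.2 CPM in WT ES and 396.6 to 414.5 CPM in WT NT libraries.

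With age, Slc40a1 was at -0.71 ± 0.12 (edgeR adjusted p = 0.0049) and Pdx1, a transcription factor of the duodenum, at -0.70 ± 0.13 (0.00613), while the ileal bile acid carrier Fabp6 was at 2.40 ± 0.41 (0.00492), with means of 3.85 CPM in old and 0.737 CPM in young libraries. The ileal list summed to 27.36 to 42.53 CPM in old and 23.49 to 27.23 CPM in young libraries. Whether the libraries of the groups came from the same stretch of intestine is not stated in the labels.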
